A study of Homo sapiens with 8 samples.

Results

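Long intergenic non-coding RNA genes carry symbols that begin with LINC and a number. The genes described here were all those so named that had a probe set of their own and a mean log2 signal of at least 6 in at least 1 of the 3 groups of samples. Of 189 LINC genes with such a probe set, 37 reached that level, out of 17958 genes in all. Each gene was read from the probe set with the highest mean over the 8 arrays. The signal level chose the genes, so their levels are a description and were not tested.

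Total RNA of each sample was hybridised to its own whole-transcript array (HuGene-1_1-st-v1, Affymetrix). The groups were KMH2 cells given glucosamine for 24 h (3 arrays), Ramos cells (2 arrays) and untreated KMH2 control cells (3 arrays). KMH2 is a Hodgkin lymphoma line and Ramos a Burkitt lymphoma line, and all cells grew in RPMI medium with heat-inactivated serum. No glucosamine dose is stated in the labels. Each line stands for 1 tumour, so a difference between the lines cannot be told apart from a difference between 2 tumours. The sample labels call both Ramos arrays control, whereas by the design text 1 of these had received glucosamine, so Ramos is described here as a cell line with its treatment unassigned.

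Long intergenic non-coding RNAs are transcribed by RNA polymerase II from the stretches between protein-coding genes, and are often capped, spliced and polyadenylated as messenger RNAs are. Many are kept at low levels by the nuclear RNA exosome, and their levels tend to be restricted to particular cell types. Some act on transcription of neighbouring genes, some act as scaffolds for proteins, some encode small peptides despite their name, and for most no function is known.

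The name did not hold for every gene. RefSeq typed 33 of the 37 as lncRNA. LINC02210-CRHR1, a read-through gene, was typed protein-coding. The identifiers of the other 3 were not in that table, and RefSeq lists their symbols as synonyms. LINC00341 is listed under SYNE3, the gene for the nuclear envelope protein nesprin-3, while LINC01296 falls under the pseudogene DUXAP9 and LINC00266-1 under the pseudogene SEPTIN14P20. More than 1 probe set stood for LINC00965 (26), LINC00266-1 (10), LINC01547 (2) and LINC02076 (2). Probe sets of genes with many near-identical copies can capture RNA of the copies, so values of LINC00965 and LINC00266-1 are uncertain.

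The marker genes of the lines were checked first. MS4A1, the B-cell antigen CD20, averaged 10.94 in Ramos and 3.70 in KMH2 control, while TNFRSF8, the Hodgkin antigen CD30, averaged 5.86 in Ramos and 8.74 in KMH2 control. CD79A, part of the B-cell receptor, averaged 11.79 in Ramos and 5.75 in KMH2 control. Of 11 markers of T cells, myeloid cells and fibroblasts, 4 had a mean above 7 in KMH2 control. CD3D averaged 8.03 after glucosamine and 8.19 in KMH2 control, and ITGAM averaged 7.40 after glucosamine and 7.39 in KMH2 control. CSF1R averaged 7.82 after glucosamine and 7.29 in KMH2 control, and CD14 averaged 6.29 after glucosamine and 7.37 in KMH2 control. The other 7 (CD3E, CD2, CD8A, LYZ, COL1A1, COL1A2 and PDGFRB) averaged 3.94 to 6.45 after glucosamine and 3.88 to 6.59 in KMH2 control. The part of these genes in the results below was not tested. In such bulk RNA, fewer cells with a transcript and less transcript per cell cannot be told apart.

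The 2 Ramos arrays stood further apart than the KMH2 replicates. Across the 37 LINC genes the median SD was 0.222 in Ramos, 0.1 after glucosamine and 0.077 in KMH2 control, in log2 units, against 0.113 in Ramos, 0.08 after glucosamine and 0.067 in KMH2 control over all probe sets tested. In Ramos, 8 of the genes were lower in replicate 2 by at least 0.5, 4 were higher by at least 0.5 and 25 lay within 0.5. The share of other genes with such gaps was not read. The SDs over all probe sets include dim ones, so they were not matched to the LINC genes by signal level. LINC01963 was 7.67 in Ramos replicate 1 and 6.24 in replicate 2, and LINC03040 was 6.70 and 7.89.

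Among the 37 LINC genes 20 reached a mean of 6 in all 3 groups. Another 6 reached it in Ramos alone, 5 in both KMH2 groups but not in Ramos, 3 after glucosamine alone (LINC01270, LINC01465 and LINC02520) and 3 in Ramos and KMH2 control but not after glucosamine (LINC00467, LINC00339 and LINC01547). The genes just inside the limit by their highest group mean were LINC01270 and LINC01465 (6.06 each) and LINC02076 (6.10). Those just outside were LINC02210 and LINC03129 (5.97 each) and LINC01565 (5.95).

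Treated and untreated KMH2 cells were compared to see how these lymphoma cells respond to glucosamine. After 24 h, 12 of the 37 LINC genes fell and 3 rose, and 22 did not pass the test, which was limma with an adjusted p under 0.05 over the 19181 probe sets with 1 symbol. This fit leaves the replicate numbers out. With the number as a block 17 were called, 12 lower and 5 higher, which adds LINC00173, LINC01951 and LINC02520 and drops LINC00839. The steepest fall was that of LINC00467, 3.17-fold, and the steepest rise that of LINC01128, 1.55-fold. Over all 17958 genes 14.1% fell and 12% rose, 26.1% in either direction. Among the 10488 genes that met the same level 22.6% fell and 18% rose, against 32.4% and 8.11% of the LINC genes, and 40.6% were called in either direction, against 40.5%. The share called therefore lay at the background for genes of this level. The median difference of the 37 was -0.04, with a median size of 0.19, and over all genes at that level the median was 0 with a median size of 0.18. Glucosamine and control arrays did not overlap in 20 of the 37 genes, 14 lower and 6 higher, a separation seen in 31.2% (lower) and 26.1% (higher) of genes at that level, and in 20.8% (lower) and 20.3% (higher) of all genes. Leaving out the 4 genes that RefSeq does not type as lncRNA left 10 lower and 3 higher of 33.

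**Figure D1:**
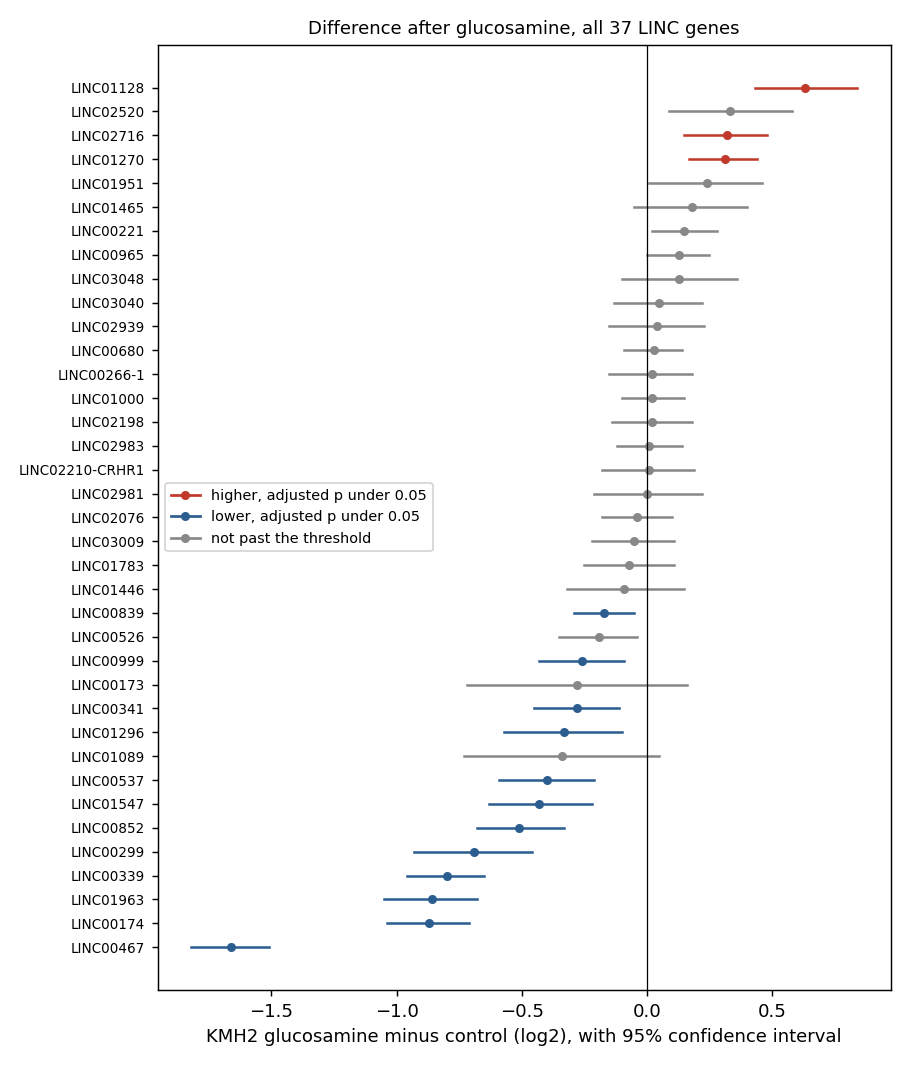
The difference of each of the 37 LINC genes after glucosamine (log2, glucosamine minus control, 3 arrays per group), with its 95% confidence interval from limma. Blue genes passed the threshold as lower, red ones as higher; LINC00467 lies farthest out at -1.66, and most of the grey genes lie within 0.2 of 0.

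LINC00467 (probe set 7909561) stood apart from the other falls. RefSeq gives it the synonym ASAP, after a small mitochondrial peptide that it encodes. Its log2 signal was 5.34, 5.34 and 5.26 in the 3 glucosamine arrays, against 6.88, 7.10 and 6.96 in the 3 control arrays. The groups lay far apart, the spread within each being small beside the gap, and the difference was -1.66 ± 0.07 (SE, adjusted p = 8.5e-06, limma). In Ramos it was 6.82 in replicate 1 and 5.87 in replicate 2, so that both Ramos arrays lay between the glucosamine and the control arrays.

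The next 3 falls were 1.83-fold, 1.82-fold and 1.75-fold. LINC00174 (probe set 8139873) was 5.21, 5.08 and 5.08 after glucosamine, against 5.99, 6.11 and 5.88 in control, a difference of -0.87 ± 0.07 (SE, adjusted p = 0.000146, limma). LINC01963 (probe set 8048171) was 6.37, 6.41 and 6.39 after glucosamine, against 7.09, 7.27 and 7.40 in control, and fell by 0.86 ± 0.08 (SE, adjusted p = 0.000222, limma). For both genes every glucosamine array was below every control array, and the spread in control was the wider. LINC00339 (probe set 7898736), transcribed beside the gene of the small GTPase CDC42, was 5.78, 5.60 and 5.81 after glucosamine, against 6.52, 6.54 and 6.54 in control (-0.80 ± 0.07, SE, adjusted p = 0.000139, limma). Here the 3 control arrays were almost equal.

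LINC00299 and LINC00852 followed. LINC00299 (probe set 8050115), which lies beside ID2, the gene of an inhibitor of helix-loop-helix transcription factors, was 7.47, 7.63 and 7.39 after glucosamine, against 7.97, 8.27 and 8.33 in control (-0.69 ± 0.10, SE, adjusted p = 0.00185, limma). LINC00852 (probe set 8077815), which RefSeq places over the ghrelin gene GHRL and also calls GHRL-AS2, was 6.06, 6.21 and 5.91 after glucosamine, against 6.53, 6.59 and 6.58 in control (-0.51 ± 0.08, SE, adjusted p = 0.00204, limma). In both genes the 2 groups were separate. LINC01547 fell by 0.43 and LINC00537 by 0.40, with adjusted p of 0.00908 and 0.00849 (limma). The second probe set of LINC01547 fell as well, by 0.32 (adjusted p = 0.0473, limma). Other probe sets did not always match the one read. For LINC00266-1, which was not called after glucosamine, 1 of the 9 other probe sets rose by 0.35 (adjusted p = 0.0327, limma). The 25 other probe sets of LINC00965 and the 1 of LINC02076 were not called after glucosamine.

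The other 4 falls were small and near the threshold. Their calls were lost when certain single arrays were left out, while their differences stayed below 0 in all alternatives. LINC01296 was 5.93, 6.34 and 6.01 after glucosamine, against 6.39, 6.50 and 6.38 in control, with an adjusted p of 0.0466 (limma). It was not called without glucosamine replicate 1 (0.0961) or 3 (0.145), or control replicate 1 (0.0904), 2 (0.149) or 3 (0.0984), and its adjusted p in the alternatives ran from 0.00398 to 0.149 (limma). LINC00839 differed by -0.17 (adjusted p = 0.042, limma), and with the replicate number as a block it was not called (adjusted p = 0.0587), nor was it with any one array left out (0.0669 to 0.124, and 0.0234 to 0.183 over all alternatives). LINC00999 differed by -0.26 and was not called without glucosamine replicate 3 (adjusted p = 0.109), control replicate 2 (0.0673) or control replicate 3 (0.0933), and its alternatives ran from 0.00645 to 0.237. LINC00341 differed by -0.28 and was not called without glucosamine replicate 2 (adjusted p = 0.0779), control replicate 2 (0.0941) or control replicate 3 (0.0823), and its alternatives ran from 0.0131 to 0.386. The probe set of SYNE3, the gene under which RefSeq lists LINC00341 and which was looked up after that was seen, fell by 0.36 (adjusted p = 0.00788, limma): it averaged 7.87 after glucosamine and 8.23 in control. What the 2 probe sets share was not tested.

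The rises were those of LINC01128, LINC02716 and LINC01270. LINC01128 (probe set 7896759) was 6.75, 6.88 and 6.87 after glucosamine, against 6.40, 6.10 and 6.10 in control (0.63 ± 0.09, SE, adjusted p = 0.0014, limma). LINC02716 (probe set 7939587) was 6.67, 6.47 and 6.57 after glucosamine, against 6.35, 6.16 and 6.25 in control (0.32 ± 0.07, SE, adjusted p = 0.0143, limma). In both genes the lowest glucosamine array lay above the highest control array, for LINC02716 by the smaller gap. That call of LINC02716 was lost without control replicate 2 (adjusted p = 0.0597) or 3 (0.0505), its alternatives running from 0.0031 to 0.0597. LINC01270 (probe set 8063389), which lies beside CEBPB, the gene of a transcription factor of stress and inflammatory responses, was 6.01, 6.04 and 6.14 after glucosamine, against 5.78, 5.70 and 5.78 in control (0.31 ± 0.06, SE, adjusted p = 0.00576, limma). LINC01270 entered the list through the glucosamine arrays alone, as did LINC02520 and LINC01465, which were not called in this fit. LINC00467, LINC00339 and LINC01547 entered through control and Ramos but not glucosamine arrays. Part of the difference of all these genes was thus fixed by the choice of genes, also where LINC02520 passed with the replicate block.

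**Figure D2:**
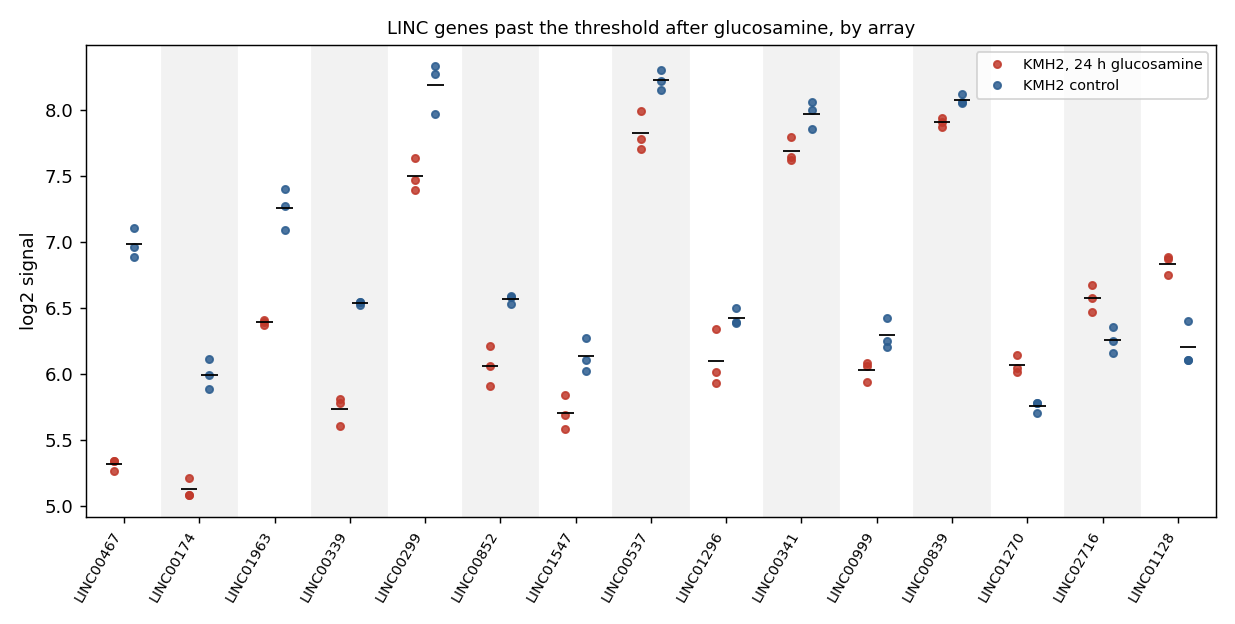
Log2 signal on each array of the 15 LINC genes past the threshold after glucosamine, with KMH2 glucosamine (red) left of KMH2 control (blue) for each gene; dots are arrays (3 per group) and black lines are group means. No gene has overlapping groups, and the gap is widest for LINC00467 and narrow for LINC01296 and LINC00839.

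Several genes lay near the threshold or showed no difference that these arrays could resolve. LINC02520 was 5.99, 6.45 and 6.20 after glucosamine, against 5.84, 5.86 and 5.96 in control (0.33, adjusted p = 0.0545, limma), and it passed with the replicate block (adjusted p = 0.0226, range 0.00603 to 0.365) and without glucosamine replicate 1 (0.00603). LINC01951 (0.24, adjusted p = 0.119, limma) passed with that block (0.0354, range 0.0354 to 0.446) and without glucosamine replicate 3 (0.0473). LINC00173 (-0.28, adjusted p = 0.344, limma) passed with the block alone (0.0419, range 0.0419 to 0.798). LINC01089 was 5.82, 6.47 and 6.52 after glucosamine, against 6.56, 6.56 and 6.71 in control (adjusted p = 0.189, limma). One glucosamine array of LINC01089 was thus far below the other 2, and so was that of LINC00173, at 6.05 beside 6.71 and 6.76; both low values come from replicate 1. The 4 smallest differences were those of LINC02981, LINC02210-CRHR1, LINC02983 and LINC02198, whose 95% confidence intervals ran from -0.21 to 0.22, -0.18 to 0.19, -0.12 to 0.14 and -0.14 to 0.18. The remaining genes that were not called lay between -0.19 (LINC00526) and 0.18 (LINC01465), of which LINC00526 passed without control replicate 3 (adjusted p = 0.0306, range 0.0306 to 0.558, limma).

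The fit that let all 8 arrays share the spread called 7 of the 15 (5 lower, 2 higher). It lost LINC01128, LINC00174, LINC01963, LINC00537, LINC01296, LINC00341, LINC00999 and LINC00839, several of which had a wide spread in Ramos (SD of 1.01 for LINC01963, 0.86 for LINC00174 and 0.71 for LINC01128).

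The start regions of 6 called genes are shown so that those of falling and rising members can be read side by side. Windows of 300 bases, 250 before to 50 after the start, were taken from RefSeq (GRCh38.p14), which held them for 24 of the 37 genes and 7 of the 15 called. LINC00467, LINC00174 and LINC01963, the 3 steepest falls, and LINC01128, the steepest rise, are not among the 7. Capitals mark matches on either strand to TGATGNAA (a composite site of ATF4), CACGTG (the E-box), TGACNNNGC (the core of the antioxidant response element), TGACGTCA (the cAMP response element), CCAAT (the CCAAT box), GGGCGG (the GC box), TATAAA (the TATA box) or TTTGGCGC (an E2F site). No matches overlapped in the windows printed. Not printed is the window of LINC00839, which fell: it held 3 matches to CCAAT and 1 to TATAAA. Of the windows printed, the first 4 belong to genes that fell and the last 2 to genes that rose.
LINC00339, chr1:22024941-22025240, plus strand: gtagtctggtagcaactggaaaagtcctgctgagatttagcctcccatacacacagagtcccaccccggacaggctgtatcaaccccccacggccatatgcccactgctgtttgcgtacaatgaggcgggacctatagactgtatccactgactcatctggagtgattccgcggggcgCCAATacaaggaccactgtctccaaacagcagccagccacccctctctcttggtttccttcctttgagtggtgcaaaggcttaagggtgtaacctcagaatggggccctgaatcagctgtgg
LINC00299, chr2:8328370-8328669, minus strand: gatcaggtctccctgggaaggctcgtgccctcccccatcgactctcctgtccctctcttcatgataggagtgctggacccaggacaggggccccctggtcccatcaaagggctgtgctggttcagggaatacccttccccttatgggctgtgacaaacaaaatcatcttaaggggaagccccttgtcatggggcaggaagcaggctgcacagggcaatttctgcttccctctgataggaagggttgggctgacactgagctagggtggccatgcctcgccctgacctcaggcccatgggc
LINC00852, chr3:10284169-10284468, plus strand: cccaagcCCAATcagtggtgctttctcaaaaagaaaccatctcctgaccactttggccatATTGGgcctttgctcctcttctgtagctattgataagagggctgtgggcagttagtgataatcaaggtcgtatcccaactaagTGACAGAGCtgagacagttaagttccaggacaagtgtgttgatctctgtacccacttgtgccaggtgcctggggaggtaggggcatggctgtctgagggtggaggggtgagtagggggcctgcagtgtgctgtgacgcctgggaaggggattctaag
LINC01547, chr21:44939864-44940163, minus strand: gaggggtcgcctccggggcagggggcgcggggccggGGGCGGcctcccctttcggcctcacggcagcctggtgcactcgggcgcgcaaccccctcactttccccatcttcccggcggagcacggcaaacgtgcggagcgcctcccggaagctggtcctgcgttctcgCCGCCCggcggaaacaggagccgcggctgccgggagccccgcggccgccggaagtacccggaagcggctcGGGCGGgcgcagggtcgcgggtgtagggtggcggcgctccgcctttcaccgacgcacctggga
LINC02716, chr11:45771182-45771481, plus strand: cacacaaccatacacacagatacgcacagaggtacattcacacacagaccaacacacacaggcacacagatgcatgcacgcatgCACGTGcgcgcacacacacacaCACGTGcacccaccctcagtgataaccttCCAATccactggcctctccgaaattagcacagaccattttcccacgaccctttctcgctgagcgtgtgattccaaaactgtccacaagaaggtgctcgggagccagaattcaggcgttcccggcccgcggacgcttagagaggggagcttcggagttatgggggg
LINC01270, chr20:50292470-50292769, plus strand: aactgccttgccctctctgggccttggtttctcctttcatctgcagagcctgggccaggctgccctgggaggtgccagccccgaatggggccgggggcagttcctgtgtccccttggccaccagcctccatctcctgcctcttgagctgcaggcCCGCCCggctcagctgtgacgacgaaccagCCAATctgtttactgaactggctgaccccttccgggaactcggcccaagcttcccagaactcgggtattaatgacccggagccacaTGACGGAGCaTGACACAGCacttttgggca

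A match is only a run of letters, and the absence of one says nothing of a factor. The window of LINC00299 held none of the 8 motifs. That of LINC01270 held 2 matches to the antioxidant core, and that of LINC02716 held 2 E-boxes, both amid a stretch rich in CA repeats. LINC01547 held 3 GC boxes, and its start lies 116 bases from the start of SLX9, a ribosome assembly gene on the opposite strand. Over all 35116 windows outside chromosome 8, TGACNNNGC occurred in 4687, CACGTG in 7.26%, CCAAT in 34.6% and GGGCGG in 45%. Some genes had more than 1 window (28 windows for 24 genes), and only the first of each called gene is given above. The 6 windows of falling members came from 5 genes, and held CCAAT in 3 and GGGCGG in 2. Windows of rising members held CCAAT in 2 of 2. No window of a called member held the ATF4 composite, which was present in 3.62% of all windows. The median GC content was 60.5% in windows of the LINC genes and 58.7% in all.

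Because intergenic transcripts can share regulation with a neighbour, each called gene was set beside the nearest protein-coding gene of the RefSeq table that had a probe set of its own. Such a neighbour was found for 34 of the 37 genes and for 13 of the 15 called. In 4 of the 13 the neighbour was called in the same direction, in 0 in the other direction, and in 9 it was not called, where 26.1% of all genes and 40.6% of genes at the level of the rule were called. Called in either direction were thus 4 of 13, a count near that background. By direction, 14.1% of all genes fell and 12% rose, and 22.6% and 18% of genes at the level of the rule. Whether the shared direction goes beyond these was not tested. ID2 fell by 0.29 (adjusted p = 0.00451, limma) where LINC00299 fell by 0.69. XRCC5, a subunit of the Ku complex of DNA repair, fell by 0.27 where LINC01963 fell by 0.86, and the zinc finger gene ZNF33B fell by 0.43 where LINC00839 fell by 0.17. CEBPB rose by 0.80 (adjusted p = 8.84e-05, limma) where LINC01270 rose by 0.31, with a mean of 8.24 after glucosamine and 7.44 in control.

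The other 9 neighbours did not pass. TRAF5, a signalling adaptor of TNF receptors next to LINC00467, differed by 0.03 (95% confidence interval -0.10 to 0.16), although at 3.42 after glucosamine and 3.39 in control its signal was near the bottom of the range. Over the lines, TRAF5 averaged 6.18 in Ramos and 3.39 in KMH2 control. CDC42, next to LINC00339, differed by -0.06 (interval -0.24 to 0.12) at 9.25 after glucosamine and 9.31 in control. This was the brighter of 2 probe sets of CDC42 (8099631). Its number lies near that of KLF3-AS1 on chromosome 4 (8099817) and far from that of LINC00339 on chromosome 1 (7898736). The value may thus not be that of the gene beside LINC00339, although it is counted among the 9. The position of the probe set was not checked. TPST1, a sulfotransferase gene next to LINC00174, differed by 0.05, and SLX9 by 0.03 (interval -0.14 to 0.19). NOC2L, an inhibitor of histone acetylation next to LINC01128, differed by -0.22 (adjusted p = 0.0632, limma). LOC107987020, next to LINC00537, differed by -0.09. GHRL differed by -0.16, ZNF37A (next to LINC00999) by 0.29 and SLC35C1, a GDP-fucose transporter next to LINC02716, by 0.18, none of which passed. Next to the 4 genes with the smallest differences, SNX10 differed by -0.11, SPPL2C by -0.04, TNRC18 by -0.03 and SLC30A5 by 0.18, and none was called.

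**Figure D3:**
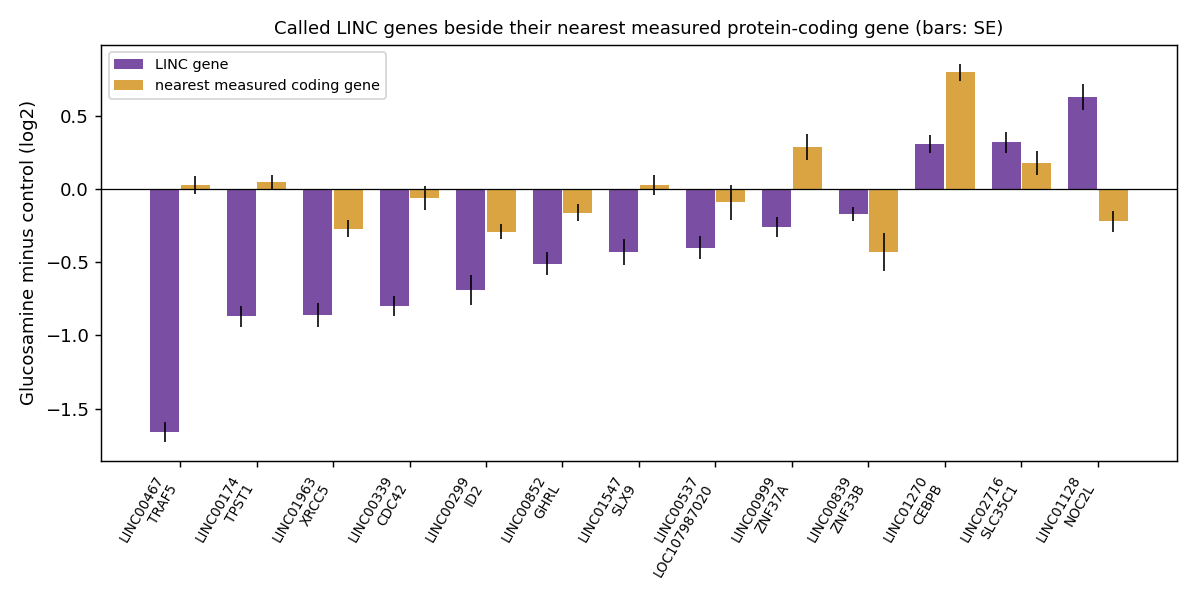
Difference after glucosamine (log2, glucosamine minus control) of the 13 called LINC genes that had a measured neighbour (purple) and of that nearest protein-coding gene (ochre); bars carry the standard error from limma, 3 arrays per group. The LINC00467 bar reaches -1.66 while that of TRAF5 is at 0.03, and only for CEBPB and ZNF33B among the called neighbours is the neighbour's bar the longer.

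Other long non-coding RNA genes, taken from lists chosen by name, were read in the same fit. Of 124 antisense RNA genes (symbols ending in AS and a number) 6 rose, 9 fell and 109 did not pass. That is 4.84% higher and 7.26% lower, against 12% and 14.1% of all genes, and the median difference was 0.01, as it was over all genes. The antisense genes were not matched to all genes by signal level. FBXL19-AS1 rose by 1.00 (adjusted p = 0.000121, limma), with a mean of 5.82 after glucosamine and 4.83 in control. EPB41L4A-AS1, a host of a small nucleolar RNA, rose by 0.94 (adjusted p = 0.000148, limma), with a mean of 8.40 after glucosamine and 7.45 in control. The background of 26.1% called over all genes holds for the lists that follow. Of 3 genes named as small nucleolar RNA hosts, SNHG32 rose by 0.90 and SNHG29 by 0.32, and SNHG17 did not pass (0.03). Among 7 measured long non-coding RNAs with names of their own 2 rose, 2 fell and 3 did not pass. MALAT1, a nuclear speckle RNA, averaged 12.03 after glucosamine and 11.59 in control, and ZFAS1, another small nucleolar RNA host, averaged 8.91 after glucosamine and 8.33 in control. DLEU2 averaged 5.94 after glucosamine and 7.96 in control. TUG1, named after its values were seen, averaged 10.23 after glucosamine and 10.60 in control.

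The nuclear RNA exosome, which degrades many such transcripts, and its adaptors had 16 measured genes, of which 3 rose, 5 fell and 8 did not pass. The share called was 50%, beside 26.1% of all genes and 40.6% of genes at the level of the rule. The core subunit gene EXOSC9 fell by 0.57 (adjusted p = 0.00134, limma) and EXOSC4 by 0.37. PABPN1, a poly(A)-binding protein of an exosome adaptor, fell by 0.34. Named after their values were seen, EXOSC2 fell by 0.27 and EXOSC7 by 0.33. The 3 that rose were ZCCHC7 (0.36), a zinc finger protein of a nuclear adaptor complex, and, named after their values were seen, the adaptor genes RBM7 (0.36) and ZCCHC8 (0.28). The median of the list was -0.13. Of the genes once named LINC for which small proteins are now known, 2 were measured and none was called; SMIM30 averaged 4.94 after glucosamine and 5.09 in control, and MTLN 4.76 in both.

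Ramos was then set against untreated KMH2 cells, which compares the LINC genes of 2 lymphoma lines. In Ramos 9 of the 37 were lower and 5 higher than in KMH2 control, and 23 did not pass. Over all genes 21.6% were lower and 22.6% higher (44.2% either way). Among genes at the same level 33.1% were lower and 30% higher (63.1% either way), against 24.3% and 13.5% (37.8% either way) of the LINC genes. Ramos and control arrays did not overlap in 10 LINC genes lower and 8 higher in Ramos, a separation seen in 38.2% (lower) and 37.3% (higher) of genes at that level, and in 26.6% (lower) and 37.7% (higher) of all genes. The rule itself favours such differences, since 8 of the 37 reached the level in KMH2 but not in Ramos and 6 in Ramos alone. Of those 8, 6 were called lower in Ramos: LINC00221, LINC00299, LINC01446, LINC00341, LINC01296 and LINC02520. Of those 6 in Ramos alone, 3 were called higher: LINC03040, LINC01000 and LINC00174. Part of the difference of these called genes was fixed by the choice of genes. Among the 20 genes at the level in all 3 groups 3 were lower and 1 higher in Ramos. The comparison shares its control arrays with that of glucosamine.

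The 3 genes lowest in Ramos were about 10-fold down. LINC00221 (probe set 7977447) was 4.92 and 4.97 in Ramos, against 8.47, 8.39 and 8.46 in KMH2 control (-3.50 ± 0.07, SE, adjusted p = 3.28e-09, limma). LINC00299 was 4.67 and 4.94 in Ramos, against 7.97, 8.27 and 8.33 in KMH2 control (-3.39 ± 0.13, SE, adjusted p = 2.16e-07, limma). Its neighbour ID2 was also lower (-2.33), with a mean of 8.63 in Ramos and 10.96 in KMH2 control. LINC01446 (probe set 8139699) was 4.17 and 3.74 in Ramos, against 7.15, 7.30 and 7.44 in KMH2 control (-3.34 ± 0.15, SE, adjusted p = 5.46e-07, limma). No Ramos array of these 3 genes reached 5, while every KMH2 control array lay above 7, and KMH2 arrays after glucosamine were between 7.02 and 8.65. TMEM121, next to LINC00221, differed by 0.08 and POM121L12, next to LINC01446, by 0.11, neither of them called; these 2 neighbours were named after their values were seen.

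LINC00341 was 5.97 and 5.16 in Ramos, against 7.85, 8.06 and 8.00 in KMH2 control (-2.41 ± 0.20, SE, adjusted p = 2.44e-05, limma). SYNE3 was lower as well, by 3.17, with a mean of 5.06 in Ramos and 8.23 in KMH2 control. LINC00839 was 6.23 and 6.00 in Ramos, against 8.12, 8.06 and 8.05 in KMH2 control (-1.96 ± 0.08, SE, adjusted p = 3.09e-07, limma). ZNF33B, its neighbour, was higher in Ramos by 1.11, opposite in sign to LINC00839. LINC02520 was lower by 1.85 and LINC01296 by 1.55. The calls of LINC00537 (-0.61) and LINC00266-1 (-0.34) were lost in some settings: LINC00537 without Ramos replicate 2 (adjusted p = 0.0555, range 0.000246 to 0.353) or control replicate 1 (0.0515), and LINC00266-1 without Ramos replicate 1 (0.238, range 0.0031 to 0.238) or control replicate 1 (0.0861), 2 (0.125) or 3 (0.0843).

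The calls higher in Ramos were 5. LINC03040 (probe set 8119918) was 6.70 and 7.89 in Ramos, against 4.83, 4.87 and 4.83 in KMH2 control (2.45 ± 0.28, SE, adjusted p = 0.000165, limma). The 2 Ramos arrays differed by 1.19, yet both lay well above all KMH2 arrays. LINC03009 (probe set 8133752) was 8.76 and 8.99 in Ramos, against 7.70, 7.85 and 7.60 in KMH2 control (1.16 ± 0.10, SE, adjusted p = 2.38e-05, limma). LINC01000 was higher by 0.82 and LINC00339 by 0.58. LINC00174 was 7.44 and 6.23 in Ramos, against 5.99, 6.11 and 5.88 in KMH2 control (0.84, adjusted p = 0.0451, limma). Its call was lost without control replicate 1 (0.0979), 2 (0.0803) or 3 (0.118), and with arrays centred on their medians (0.0523). It was also lost with all probe sets (0.0633) and with Ramos and control arrays alone (0.114). Without Ramos replicate 1 the difference was 0.23.

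For 9 genes that were not called, the call depended on which Ramos array was read. LINC00467 was not called (-0.63, adjusted p = 0.0566, limma), but it was without Ramos replicate 1 (1.8e-05, range 1.8e-05 to 0.228). LINC01128 was 6.30 and 7.31 in Ramos, against 6.40, 6.10 and 6.10 in KMH2 control (0.60, adjusted p = 0.0869, limma), and it too was called without replicate 1 (0.000102, range 0.000102 to 0.938). LINC00965 was called without Ramos replicate 1 (7.18e-06, range 7.18e-06 to 0.42) and LINC00526 without Ramos replicate 2 (0.00018, range 0.00018 to 0.853). Of the 25 other probe sets of LINC00965, 5 were higher in Ramos, 1 of them by 1.12 (adjusted p = 0.000282, limma). Among these, 8144412 and 8144414 had the same values on every array, as had 8144420 and 8144494, so the 5 are not separate readings. LINC01963, not called with both arrays (-0.30, adjusted p = 0.515, limma), was lower without Ramos replicate 1 (-1.01, adjusted p = 9.51e-05) and higher without Ramos replicate 2 (0.42, 0.0159), over a range of 9.51e-05 to 0.702. LINC00999 (0.0117, range 0.0117 to 0.712) and LINC00680 (0.00978, range 0.00978 to 0.739) passed without replicate 1. LINC01089 (0.037, range 0.037 to 0.996) and LINC01951 (0.0192, range 0.0192 to 0.739) passed without replicate 2. LINC02939 passed without KMH2 control replicate 1 (0.0211, range 0.0211 to 0.208). With 1 Ramos array left out, the remaining one is assumed to vary as the KMH2 groups do. Which of the arrays, if any, came from treated cells was not tested.

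**Figure D4:**
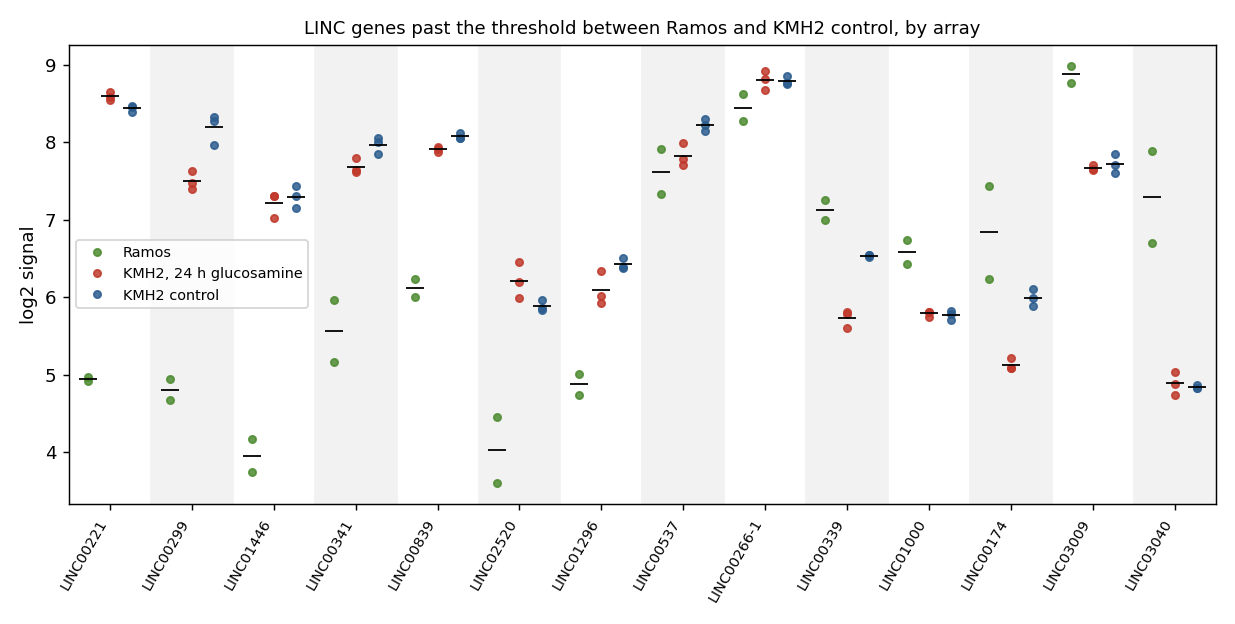
Log2 signal on each array of the 14 LINC genes past the threshold between Ramos and KMH2 control, with Ramos (green, 2 arrays), KMH2 glucosamine (red, 3) and KMH2 control (blue, 3) from left to right for each gene; black lines are group means. LINC00221, LINC00299 and LINC01446 lie below 5 in Ramos and above 7 in every KMH2 array, and LINC03040 shows the reverse order; the 2 Ramos arrays lie 1.21 apart for LINC00174 and 1.19 apart for LINC03040.

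Other long non-coding RNA lists differed between the lines as well. Of 124 antisense RNA genes 21 were higher and 10 lower in Ramos, or 16.9% and 8.06%, against 22.6% and 21.6% of all genes. Their median was 0.10, beside 0.06 over all genes. Here too the signal level was not matched. LY6S-AS1 averaged 4.97 in Ramos and 7.31 in KMH2 control. PAX8-AS1 averaged 3.72 in Ramos and 5.18 in KMH2 control. All 3 measured small nucleolar RNA hosts named SNHG were higher in Ramos, SNHG17 by 1.60. ZFAS1 was higher by 1.15 and DLEU1 by 0.76. SMIM30, which encodes a small membrane protein, averaged 8.96 in Ramos and 5.09 in KMH2 control. The exosome list was split, with 5 genes higher and 5 lower (62.5% called, beside 44.2% of all genes and 63.1% at the level of the rule), among them ZCCHC7 (higher by 1.61) and EXOSC4 (-1.80).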

How the data were processed

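RNA of 8 samples was labelled with biotin and hybridised to whole-transcript arrays, per the labels' protocols. The authors deposited 1 log2 value for each of 33297 probe sets and array, with none missing. The scale was read from the values. How arrays were summarised, corrected for background and normalized is not given in the sources used here. Array medians lay between 5.62 and 5.68. Any background left in the values would shrink folds of weak genes, and the number of arrays limits the precision. No detection calls were used.

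Gene symbols came from the platform's 2016 annotation. Of 21236 listed, 19181 had 1 symbol and were tested, 2055 had several and were not named, and 12061 probe sets were unlisted. Among those with several, 34 held a LINC symbol and were left out. RefSeq tables (GRCh38.p14) gave gene types, neighbours and promoter windows, matched by Entrez identifier (34 of 37). Gene coordinates are not printed, as the build behind the annotation is not given in the sources used here.

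Differences were tested with the moderated test of limma 3.58.1 (R 4.3.3; lmFit, then eBayes; two-sided; p-values adjusted by Benjamini-Hochberg over 19181 probe sets, threshold 0.05). All p-values here are from limma unless named otherwise. The glucosamine comparison used 6 KMH2 arrays, and the cell-line comparison all 8 in 3 groups. The fits were tested on simulated data. Replicate numbers are shared between the KMH2 groups, and deviations from group means correlated at 0.46, 0.23 and 0.23 within replicates 1, 2 and 3. Between different numbers the values ran from -0.37 to 0.25, with 0.25 and 0.18 between replicates 2 and 3, so these 2 numbers were not told apart. Because each same-numbered value was above 0.1, the replicate number was fitted as a block in an alternative. That bound does not establish pairing, since the values between replicates 2 and 3 were above it too. The main test was fitted without the block. The design text calls the KMH2 replicates biological, whereas the Ramos arrays may differ by technical spread. The p-values of the cell-line comparison rest on a spread pooled over the 3 groups, to which the KMH2 arrays contribute most. Where Ramos varied more, the pooled SE can be too small. For LINC03040 it was 0.28, with an SD of 0.84 in Ramos, 0.15 after glucosamine and 0.03 in KMH2 control.

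The members and lists were chosen with earlier results of these data known. Named were the called members (at most 12 rises and 12 falls after glucosamine, and at most 10 each way in Ramos), the 4 smallest differences, the 3 genes on each side of the level, 2 genes per other list and comparison, and neighbours of the members named after glucosamine. Other genes were named after their values were seen. Alternatives covered scaling, probe sets tested, weights, pairing, arrays left out and the level of the rule.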

Additional observations from a re-analysis of the deposited data

How the results depend on the processing

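After glucosamine 10 to 14 genes were called with any one array left out (8 to 10 lower, 2 to 4 higher), and in Ramos 12 to 18 (7 to 12 lower, 4 to 8 higher). With all 8 arrays sharing the spread 7 were called after glucosamine, 5 of them lower. With the KMH2 replicate number as a replicate block 17 were called after glucosamine, 5 of them higher: it lost LINC00839, gained LINC00173, LINC01951 and LINC02520 and changed no other call. A member level of 5 gave 6 higher after glucosamine, and 31 called with 18 higher in Ramos. A level of 7 gave 6 called, 6 lower and 0 higher after glucosamine (limma; with fewer genes read), and 3 higher in Ramos. The mean of all 8 arrays as the level gave 9 called and 2 higher in Ramos. Set against KMH2 glucosamine in place of control, 10 were higher in Ramos and LINC00467 turned to 1.03 and LINC01547 to 0.36. LINC01963 was -1.01 without Ramos replicate 1 and 0.42 without Ramos replicate 2. Quantile normalization, median centring, all probe sets, no dim probe sets, array weights, probe set means, both replicate 1 arrays left out, Ramos and control alone and, chosen after seeing the data, members typed lncRNA alone left the counts within 1.5 times. Of the alternatives run for single genes 879 kept the call, 52 lost one, 28 gained one and 3 reversed, and 57 differences that were not called changed sign. The cause of these shifts was not tested. Signals near the lower end limit what can be seen of weak genes.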

Other observations

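The 152 LINC genes below a group mean of 6 were mostly not called. After glucosamine 6 rose, 3 fell and 143 did not pass, and in Ramos 23 were higher, 9 lower and 120 did not pass. These are 5.92% called after glucosamine and 21.1% in Ramos, against 26.1% and 44.2% of all genes. That background includes the brighter genes, those at the level of the rule, of which 40.6% and 63.1% were called. The share among dim genes alone was not read, so these percentages do not set the LINC genes apart from other dim genes. Their median difference was 0.03 after glucosamine and 0.08 in Ramos, beside 0.01 and 0.06 over all genes. These genes were named after their values were seen. LINC01260 averaged 5.62 after glucosamine and 5.20 in control (adjusted p = 0.00327, limma), and LINC01560 averaged 5.09 after glucosamine and 5.52 in control (adjusted p = 0.00187, limma). LINC01152 averaged 5.20 in Ramos and 3.30 in KMH2 control, while LINC00189 averaged 3.67 in Ramos and 4.70 in KMH2 control. In so dim a range, background of unknown size makes each fold a low estimate.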
